A study of Mus musculus with 9 samples.

Results

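Of the 55274 gene identifiers measured in mouse bone marrow cells carrying leukaemia oncogenes, 10 genes of blood stem cells and leukaemia self-renewal were followed: Cd34, Procr, Mecom, Hlf, Sox4, Myb, Mn1, Erg, Msi2 and Prom1. They were chosen by name, and each name matched 1 gene identifier in the expression tables. The study asked how NUP98-NSD1, in which a nucleoporin is fused to a methyltransferase of histones, and NRASG12D, a constitutively active RAS mutant, act alone and together. RNA-seq was available for 9 libraries in groups of 3: NRASG12D alone, NUP98-NSD1 alone and the combination, called NUP98-NSD1+NRASG12D.

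All 3 groups came from the marrow of female C57BL/6J mice 6 to 8 weeks old that had received 150 mg/kg of 5-fluorouracil 4 days earlier. The cells were stimulated for 48 h with human IL-6 at 10 ng/mL, mouse IL-3 at 6 ng/mL and mouse SCF at 20 ng/mL. NUP98-NSD1 was delivered by a retroviral vector with GFP and NRASG12D by a retroviral vector with BFP, and the cells were sorted by these fluorochromes and expanded in culture. Every group carries at least 1 oncogene, so no library shows untransduced marrow. The sources used here do not say whether the 3 libraries of a group came from separate mice or transductions, and p-values measure only the spread between these libraries, which may be technical. The NRASG12D cultures are described in the study as mostly mast cells.

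A blood stem cell keeps its own numbers by dividing without maturing, and this self-renewal is run by a small network of transcription factors that is shut down as cells mature. Mecom, Hlf, Erg, Myb, Sox4 and Mn1 are transcriptional regulators of this kind, and Msi2 controls the translation of its mRNAs. Cd34, Procr and Prom1 are surface proteins by which stem or progenitor cells are recognised. Several of them are known as drivers or markers of myeloid leukaemia. In the mouse, Cd34 is also carried by mast cells.

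The values are FPKM, fragment numbers scaled to the length of the transcript and to the mapped fragments of the library, so levels can be compared between genes. The depth estimated from the steps between low FPKM values was 23500000 to 37100000 fragments per library, and a level that stands on fewer than 3 fragments is treated as not detectable. The genes were compared as log2(FPKM + 1) with limma, over 13493 genes that reached 1 FPKM in 3 or more libraries. All fold changes are differences on that log2 scale, on which low genes change less than their FPKM do. Of the 10 genes, 8 were tested, and Procr (2 libraries at 1 FPKM or more) and Mn1 (1 library) were not. Sox4 and Prom1 reached the minimum only through libraries with NUP98-NSD1, with or without NRASG12D, since every library with NRASG12D alone was below 1 FPKM for both. Mecom and Hlf reached it through the groups with a single oncogene, since every library with both was below 1 FPKM. A single value cannot pass 0.05 in a two-sided exact permutation test of 3 libraries against 3, for which the smallest p is 0.1. In bulk RNA, fewer cells of a type and less RNA per cell cannot be told apart.

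The oncogene transcripts were read first as a check of the labels. Nras stood at 354, 479 and 348 FPKM in NRASG12D, at 50.3, 47.7 and 51.2 FPKM in NUP98-NSD1 and at 245, 262 and 701 FPKM in NUP98-NSD1+NRASG12D cells. Every library labelled with NRASG12D was above every library without it, as the labels require. Nup98 was higher in NUP98-NSD1 than in NRASG12D cells (18.6 ± 0.399 against 10.3 ± 1.07 FPKM, SD, n = 3), and Nsd1 did not pass the test in any of the 3 comparisons. With both oncogenes Nup98 was at 11.9, 15.6 and 20.2 FPKM, which did not pass the test against NRASG12D (limma adjusted p = 0.0818), so its level does not check the fusion label in that group. Replicate 3 of NUP98-NSD1+NRASG12D stood apart from its group in Nras and also in the neutrophil gene S100a8 (8629 FPKM, against 1431 and 2049 FPKM in replicates 1 and 2). Results that turn on a single library are given with and without it.

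Promoter sequences from RefSeq (GRCm38.p6) were found for 9 of the 10 genes, in 15 windows of 250 bases that end at an annotated start. Mn1 was not among them. The windows were searched on both strands for motifs of factors that act in blood stem cells: GATAAG for GATA factors, CCGGAAG for ETS factors, TGTGGT for RUNX factors, TGATTNAT for HOX with PBX, and CAACTG for MYB. A match was found in 2 of the 15 windows, 1 in each, so no matches overlapped. The windows of Msi2 overlap each other, so the 15 are not all separate sequences. Among 32851 promoter windows of the same length, 6.55% held the GATA motif, 6.91% the ETS motif, 14.0% the RUNX motif, 2.82% the HOX with PBX motif and 11.1% the MYB motif. The 3 windows shown are that of Cd34, the gene with the highest FPKM of the 10, and the 2 that held a match, in Erg and in Prom1. They are written 5′ to 3′ on the strand of the gene, with a match in capitals. Cd34 lies on the plus strand of chromosome 1 and its window is chr1:194938571-194938820. The Erg window is chr16:95459349-95459598 on the minus strand, 1 of 3 starts of the gene, and its capitals are the GATA motif read on the other strand. The Prom1 window is chr5:44101737-44101986 on the minus strand, 1 of 2 starts, and its capitals are the RUNX motif.
Cd34: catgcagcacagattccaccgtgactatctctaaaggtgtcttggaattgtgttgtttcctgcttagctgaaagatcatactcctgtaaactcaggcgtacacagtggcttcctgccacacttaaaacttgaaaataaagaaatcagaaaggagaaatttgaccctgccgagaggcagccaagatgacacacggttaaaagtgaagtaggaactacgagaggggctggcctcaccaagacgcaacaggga
Erg: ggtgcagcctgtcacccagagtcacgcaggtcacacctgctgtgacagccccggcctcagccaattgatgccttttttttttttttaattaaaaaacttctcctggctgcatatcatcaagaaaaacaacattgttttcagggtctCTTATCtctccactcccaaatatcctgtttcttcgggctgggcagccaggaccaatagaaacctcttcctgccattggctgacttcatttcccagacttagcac
Prom1: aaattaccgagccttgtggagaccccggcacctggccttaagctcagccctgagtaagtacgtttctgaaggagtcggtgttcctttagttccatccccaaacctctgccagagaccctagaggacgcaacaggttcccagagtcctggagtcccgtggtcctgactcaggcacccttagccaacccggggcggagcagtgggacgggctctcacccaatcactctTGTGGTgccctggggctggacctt
A match is a description of the letters, not evidence of a bound site. No binding or chromatin was measured in these libraries.

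Expression of Cd34, a sialomucin on the surface of progenitor cells, was the highest of the 10 genes in NRASG12D and NUP98-NSD1 cells and fell in NUP98-NSD1+NRASG12D cells. Cd34 (ENSMUSG00000016494.9, GRCm38 chromosome 1 from 194938819 to 194961279) was at 307, 333 and 341 FPKM in NRASG12D and at 400, 431 and 492 FPKM in NUP98-NSD1 cells. In NUP98-NSD1+NRASG12D cells it was at 117, 72.9 and 9.53 FPKM. All 3 libraries with both oncogenes lay below the other 6, and they differed 12.3-fold among themselves, with replicate 3 the lowest. The change of NUP98-NSD1+NRASG12D against NRASG12D was -2.86 ± 0.82 on the log2 scale (SE, limma adjusted p = 0.0318). Leaving out replicate 1, 2 or 3 of NRASG12D took this call away (limma adjusted p = 0.0808, 0.0843 and 0.0921), and so did using no filter on low values. Against NUP98-NSD1 the difference was larger in size but did not pass the test (-3.29 ± 0.83, limma adjusted p = 0.0568). It passed without NUP98-NSD1+NRASG12D replicate 3 (limma adjusted p = 0.0235) and without replicate 1 (limma adjusted p = 0.0260). NUP98-NSD1 cells were above NRASG12D cells by 0.43 ± 0.10 (limma adjusted p = 0.0119), a call that was lost in 4 of 15 alternatives, including when libraries were scaled by median ratios (0.0894, limma adjusted p = 0.592) or quantile normalised (0.22, limma adjusted p = 0.207).

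**Figure D1:**
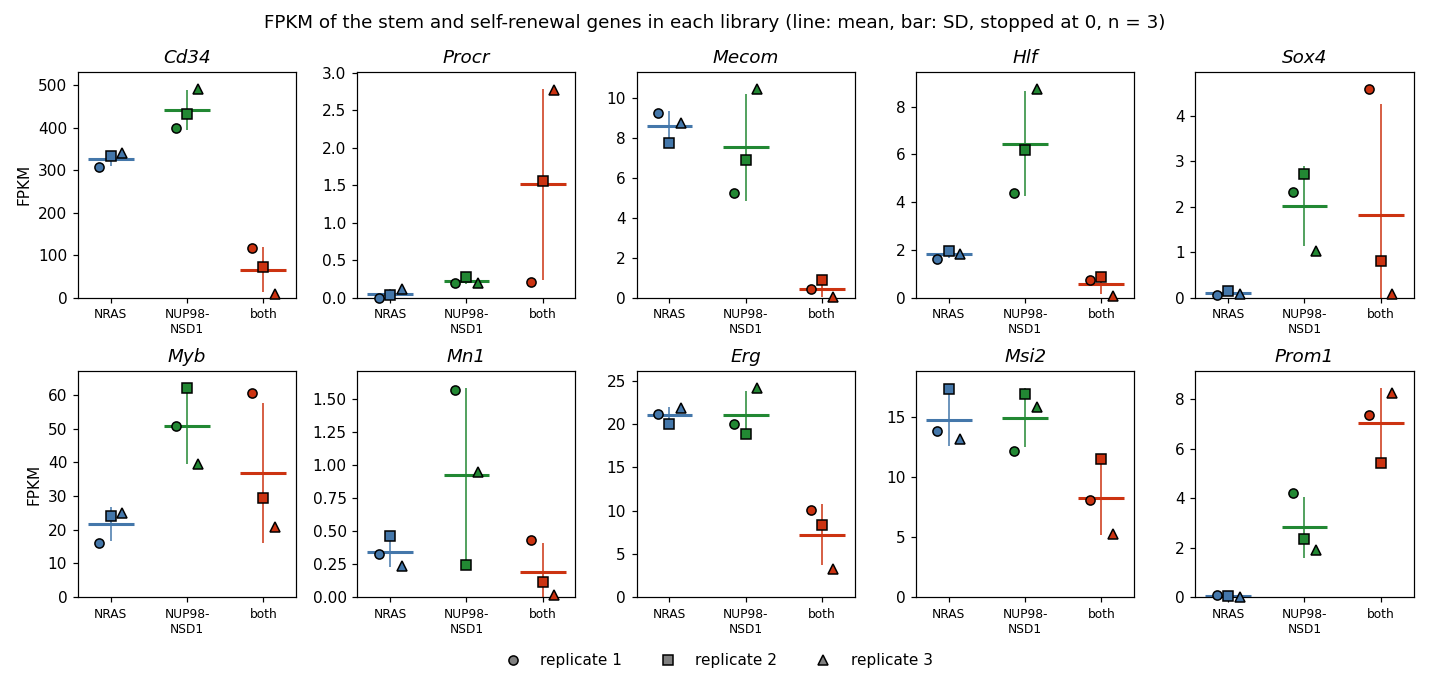
FPKM (vertical axis, from 0, a separate scale per gene) of the 10 genes in the 9 libraries, grouped as NRASG12D (NRAS), NUP98-NSD1 and NUP98-NSD1+NRASG12D (both); symbols are replicates, horizontal lines group means and vertical bars the SD (n = 3), stopped at 0. Cd34, Mecom, Hlf, Erg and Msi2 are lower in all 3 libraries with both oncogenes than in the other 6, whereas Prom1 is at 0.0644 FPKM or less in NRASG12D and at 1.88 to 8.28 FPKM in the 6 libraries with NUP98-NSD1.

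Prom1 (CD133), a membrane glycoprotein of progenitor and leukaemia-initiating cells, was barely detected with NRASG12D alone and rose in both groups with NUP98-NSD1. Prom1 (ENSMUSG00000029086.15, chromosome 5 from 43993620 to 44102032) was at 0.0644, 0.0327 and 0 FPKM in NRASG12D, at 4.23, 2.35 and 1.88 FPKM in NUP98-NSD1, and at 7.36, 5.44 and 8.28 FPKM in NUP98-NSD1+NRASG12D cells. The 3 groups did not overlap. In NRASG12D the level stood on fewer than 7 fragments per library, and in replicate 3 it was below the level of 3 fragments, 0.0312 FPKM. The rise over NRASG12D was 1.84 ± 0.23 in NUP98-NSD1 (limma adjusted p = 0.00135) and 2.94 ± 0.19 in NUP98-NSD1+NRASG12D cells (limma adjusted p = 0.000119). Both calls held in all 15 alternative analyses, and with a pseudocount of 0.1 in place of 1 the changes were 4.41 and 5.76. NUP98-NSD1+NRASG12D exceeded NUP98-NSD1 by 1.10 ± 0.27, which missed the threshold (limma adjusted p = 0.0534) and passed it in 4 of 15 alternatives. Of the exonic bases of Prom1, 5.91% are shared with Gm16401 on the other strand, which was at 0.0826 FPKM or less in every library.

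Procr, the endothelial protein C receptor by which long-term stem cells are sorted, was close to the detection limit in most libraries. It was at 0, 0.0373 and 0.120 FPKM in NRASG12D, at 0.202, 0.275 and 0.195 FPKM in NUP98-NSD1, and at 0.212, 1.56 and 2.77 FPKM in NUP98-NSD1+NRASG12D cells. The first 2 NRASG12D values are below what 3 fragments give (0.0740 and 0.0503 FPKM). Replicates 2 and 3 with both oncogenes were above all other libraries and replicate 1 was not. Without a filter on low values, Procr did not pass the test in any comparison (limma adjusted p = 0.0791, 0.212 and 0.555).

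Mecom (Evi1), a zinc finger factor of long-term stem cells and an oncogene of myeloid leukaemia, fell strongly with both oncogenes. Mecom (ENSMUSG00000027684.16, chromosome 3 from 29951296 to 30548008) was at 9.24, 7.75 and 8.76 FPKM in NRASG12D, at 5.22, 6.87 and 10.5 FPKM in NUP98-NSD1, and at 0.443, 0.891 and 0.0454 FPKM in NUP98-NSD1+NRASG12D cells. The groups with a single oncogene overlapped, and each library with both was below 1 FPKM. The change was -2.75 ± 0.24 against NRASG12D (limma adjusted p = 0.000311), called in all 15 alternatives, and -2.54 ± 0.31 against NUP98-NSD1 (limma adjusted p = 0.00846), called in 14 of 15. The second call was lost with no filter on low values, a filter that Mecom passed only through the groups where it is high. NUP98-NSD1 and NRASG12D differed by -0.21 ± 0.22 (limma adjusted p = 0.433), and by -0.45 with a call when NUP98-NSD1 replicate 3 was left out (limma adjusted p = 0.0348).

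Hlf, a PAR bZIP factor that keeps stem cells quiescent, was called in both directions, higher with NUP98-NSD1 alone and lower with both oncogenes. Hlf (ENSMUSG00000003949.16, chromosome 11 from 90336536 to 90390895) was at 1.64, 1.97 and 1.83 FPKM in NRASG12D, at 4.40, 6.18 and 8.75 FPKM in NUP98-NSD1, and at 0.758, 0.874 and 0.0900 FPKM in NUP98-NSD1+NRASG12D cells. No library of one group reached the range of another. NUP98-NSD1 was above NRASG12D by 1.36 ± 0.21 (limma adjusted p = 0.00277), called in all 14 alternatives that kept the gene. NUP98-NSD1+NRASG12D was below NUP98-NSD1 (-2.24 ± 0.30, limma adjusted p = 0.0102), called in 13 of 14. The exception was the fit with no filter on low values, a filter that Hlf passed only through the groups with a single oncogene. Hlf with both oncogenes was also below NRASG12D (-0.87 ± 0.24, limma adjusted p = 0.0278). This call was lost with no filter on low values and with a pseudocount of 0.1 (-1.82, limma adjusted p = 0.0624). It was also lost without replicate 1, 2 or 3 of NRASG12D (limma adjusted p = 0.0697, 0.0874 and 0.0878).

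Erg, an ETS factor needed for stem cell self-renewal, had overlapping levels with either oncogene alone and was lower with both. Erg (ENSMUSG00000040732.20, chromosome 16 from 95359169 to 95586593) was at 21.2, 20.1 and 21.9 FPKM in NRASG12D, at 20.1, 18.9 and 24.2 FPKM in NUP98-NSD1, and at 10.1, 8.32 and 3.22 FPKM in NUP98-NSD1+NRASG12D cells. The 3 libraries with both oncogenes lay below the other 6. The difference between the single oncogenes was -0.0056 ± 0.11 (limma adjusted p = 0.970). NUP98-NSD1+NRASG12D cells were lower than NRASG12D (-1.54 ± 0.35, limma adjusted p = 0.0144) and than NUP98-NSD1 cells (-1.53 ± 0.36, limma adjusted p = 0.0484). The first call was lost without NRASG12D replicate 1 (limma adjusted p = 0.0507) or replicate 3 (0.0552), and with no filter on low values. The second was close to the threshold and was lost in 8 of 15 alternatives. Among them were the fits without NUP98-NSD1 replicate 1, 2 or 3 and without NUP98-NSD1+NRASG12D replicate 2 (limma adjusted p = 0.0689). The fit with no filter on low values lost it too.

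Msi2, an RNA-binding protein that maintains stem cells and myeloid leukaemia, followed the order of Erg at a smaller size. It was at 13.8, 17.3 and 13.1 FPKM in NRASG12D, at 12.1, 16.9 and 15.8 FPKM in NUP98-NSD1, and at 8.07, 11.4 and 5.27 FPKM in NUP98-NSD1+NRASG12D cells. The libraries with both oncogenes were the 3 lowest of the 9. The differences of -0.81 ± 0.27 against NRASG12D (limma adjusted p = 0.0503) and -0.83 ± 0.28 against NUP98-NSD1 (limma adjusted p = 0.122) did not pass the test. The first passed in 8 of 15 alternatives, including median-ratio scaling (limma adjusted p = 0.0272).

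Myb, the transcription factor that drives proliferation of progenitors and of leukaemia cells, was higher with NUP98-NSD1. It was at 16.0, 24.1 and 24.9 FPKM in NRASG12D, at 50.7, 62.1 and 39.4 FPKM in NUP98-NSD1, and at 60.4, 29.4 and 20.8 FPKM in NUP98-NSD1+NRASG12D cells. Every NUP98-NSD1 library exceeded every NRASG12D library, and the libraries with both oncogenes ranged over both groups. The rise of NUP98-NSD1 over NRASG12D was 1.19 ± 0.21 (limma adjusted p = 0.00445), called in all 15 alternatives. With both oncogenes Myb differed by 0.63 ± 0.39 from NRASG12D (limma adjusted p = 0.229) and by -0.56 ± 0.39 from NUP98-NSD1 (limma adjusted p = 0.452). The second difference passed without NUP98-NSD1+NRASG12D replicate 1 (limma adjusted p = 0.0447).

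Sox4, an HMG box factor of progenitors and an oncogene in myeloid leukaemia, was at 0.0555, 0.150 and 0.0796 FPKM in NRASG12D and at 2.32, 2.71 and 1.02 FPKM in NUP98-NSD1 cells. With both oncogenes it was at 4.59, 0.804 and 0.0779 FPKM, a 59.0-fold range that runs from the NRASG12D level to above all NUP98-NSD1 libraries. The rise of NUP98-NSD1 over NRASG12D was 1.42 ± 0.23 (limma adjusted p = 0.00339), and 3.36 with a pseudocount of 0.1. With all 9 libraries in 1 fit this call was lost (limma adjusted p = 0.0739). The other 2 comparisons did not pass the test (1.02 ± 0.55, limma adjusted p = 0.179, and -0.40 ± 0.59, limma adjusted p = 0.781), and the last changed sign to 0.12 without NUP98-NSD1+NRASG12D replicate 3. Of the exonic bases of Sox4 (ENSMUSG00000076431.4, chromosome 13 from 28948919 to 28953713), 54.6% are shared with the lincRNA Gm26735 on the other strand. Gm26735 was listed at 0.0241 to 0.107 FPKM with NRASG12D alone, at 1.28 to 3.03 FPKM with NUP98-NSD1 alone and at 0.140 to 5.23 FPKM with both. The sources used here do not state strand-specific counting, so the reads of the 2 genes cannot be told apart and the level of Sox4 is uncertain.

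Mn1, a transcriptional co-regulator whose overexpression transforms myeloid progenitors, was low in all groups. It was at 0.326, 0.461 and 0.234 FPKM in NRASG12D, at 1.57, 0.243 and 0.950 FPKM in NUP98-NSD1, and at 0.434, 0.111 and 0.0125 FPKM in NUP98-NSD1+NRASG12D cells. The groups overlapped in every comparison, and the last value is below that of 3 fragments (0.0183 FPKM). Without a filter the 3 comparisons gave limma adjusted p = 0.421, 0.487 and 0.554.

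Counted together, 5 of the 8 tested genes rose in NUP98-NSD1 against NRASG12D (Cd34, Hlf, Sox4, Myb and Prom1) and none fell, while Mecom, Erg and Msi2 did not pass. Over all tested genes, 52.1% were called in this comparison, 42.2% higher and 9.98% lower. The same 5 genes were those whose groups did not overlap, which held for 64.2% of all tested genes (50.7% higher and 13.5% lower). In NUP98-NSD1+NRASG12D against NRASG12D, 4 of 8 fell (Cd34, Mecom, Hlf and Erg) and 1 rose (Prom1), against a background of 38.3% of genes called, 14.1% lower and 24.2% higher. In NUP98-NSD1+NRASG12D against NUP98-NSD1, 3 of 8 fell (Mecom, Hlf and Erg) and none rose, against 8.61% of all tested genes called, 6.31% lower and 2.3% higher. In each of these last 2 comparisons the groups did not overlap for 5 tested genes that were lower (Cd34, Mecom, Hlf, Erg and Msi2) and 1 that was higher (Prom1). Over all tested genes the groups did not overlap for 58.6% against NRASG12D (19.9% lower and 38.7% higher) and for 31.4% against NUP98-NSD1 (19.8% lower and 11.6% higher). In place of the 5 genes called against NRASG12D, 2 were called without NRASG12D replicate 1, 3 without replicate 2 and 2 without replicate 3. Against NUP98-NSD1, 5 in place of 3 were called without NUP98-NSD1+NRASG12D replicate 1. These counts are a description and support no direction, since Mecom, Hlf, Sox4 and Prom1 entered the test only through the groups where they are high. The comparisons share groups, so they are not independent of each other.

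By level, given per length, Cd34 led in NRASG12D cells at 327 ± 18.1 FPKM (SD, n = 3). Myb (21.7 ± 4.94 FPKM), Erg (21.1 ± 0.935 FPKM) and Msi2 (14.8 ± 2.23 FPKM) followed, with ranges of which Myb overlapped both others, and then Mecom (8.58 ± 0.759 FPKM) and Hlf (1.81 ± 0.167 FPKM), which stood apart. The other 4 genes were below 0.5 FPKM there. In NUP98-NSD1 cells the order was Cd34 (441 ± 46.6 FPKM), Myb (50.7 ± 11.4 FPKM), Erg (21.1 ± 2.79 FPKM), Msi2 (14.9 ± 2.48 FPKM), Mecom (7.52 ± 2.68 FPKM), Hlf (6.45 ± 2.19 FPKM), Prom1 (2.82 ± 1.24 FPKM) and Sox4 (2.02 ± 0.885 FPKM), and Mecom overlapped Hlf and Prom1 overlapped Sox4. In NUP98-NSD1+NRASG12D cells Prom1 (7.03 ± 1.45 FPKM) reached the range of Erg (7.21 ± 3.57 FPKM) and Msi2 (8.26 ± 3.09 FPKM), behind Cd34 (66.4 ± 53.9 FPKM) and Myb (36.9 ± 20.8 FPKM), whose ranges overlapped too.

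**Figure D2:**
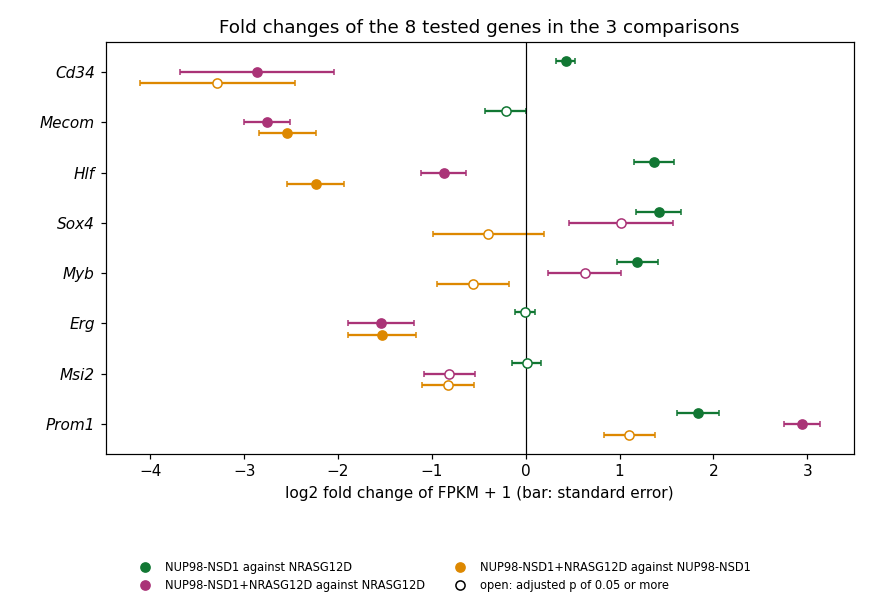
Log2 fold change of FPKM + 1 (horizontal axis, bars are standard errors, 3 libraries per group) of the 8 tested genes in the 3 comparisons; filled points have a limma adjusted p under 0.05. Mecom, Hlf and Erg lie left of 0 in both comparisons of NUP98-NSD1+NRASG12D with filled points, whereas Prom1 lies right of 0 in all 3.

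The median change of all tested genes was not 0. Against NRASG12D it was 0.27 with the fusion alone and 0.23 with both oncogenes, and it was -0.059 between the groups with the fusion. Relative to these medians, NUP98-NSD1 against NRASG12D gave 1.09 for Hlf, 1.14 for Sox4, 0.92 for Myb, 1.57 for Prom1 and 0.15 for Cd34. For NUP98-NSD1+NRASG12D against NRASG12D, the same step gave -2.98 for Mecom, -3.09 for Cd34, -1.77 for Erg, -1.10 for Hlf and 2.71 for Prom1.

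The libraries with both oncogenes had the widest ratio of highest to lowest value for every gene except Prom1, leaving aside groups with a value of 0. Replicate 3 of NUP98-NSD1+NRASG12D was the lowest of its group in 8 of the 10 genes and the highest in the other 2, Procr and Prom1. In the NRASG12D group no replicate was the lowest in more than 5 genes, and in NUP98-NSD1 in more than 4. The highest value was 19.7 times the lowest for Mecom, 9.71 times for Hlf and 34.8 times for Mn1 with both oncogenes, but 1.19, 1.20 and 1.97 times in NRASG12D cells. With both oncogenes the lowest values stood on about 6.17 fragments for Mecom, 12.1 for Hlf and 2.04 for Mn1, so these ratios are imprecise. The Mn1 value is below the 3 fragments needed for detection. Prom1 had the smallest ratio in this group, 1.52.

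Across the 9 libraries, the log2 levels of Cd34 and Erg had the highest correlation of any pair (Pearson r = 0.987), and those of Sox4 and Myb the next (r = 0.951). Mecom had r = 0.938 with Erg and r = -0.829 with Prom1. These values describe 9 libraries that fall into 3 groups and differ in cell type markers, and they carry no p. By this measure over the 9 libraries, the 3 tested genes most like Cd34 were Mettl3 (r = 0.995), Ripor1 (r = 0.992) and Cxxc5 (r = 0.990). Those most like Mecom were Nqo1 (r = 0.997), Crip1 (r = 0.995) and Zfp442 (r = 0.993). The 3 most like Hlf were Zfp273 (r = 0.962), Rilpl1 (r = 0.958) and Gon4l (r = 0.955). Those most like Sox4 were Fiz1 (r = 0.996), Slc43a1 (r = 0.992) and Naxd (r = 0.991). The 3 most like Myb were Hnrnpul1 (r = 0.982), E2f4 (r = 0.979) and Ube2g1 (r = 0.979). Those most like Erg were Gimap1 (r = 0.991), Zfp507 (r = 0.991) and Kcnk5 (r = 0.990). The 3 most like Msi2 were Mbd6 (r = 0.979), Gm37422 (r = 0.977) and Zkscan1 (r = 0.976). Those most like Prom1 were Gm34680 (r = 0.998), Rara (r = 0.996) and Emb (r = 0.996).

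Of 22 relatives and partners of the 10 genes, 13 were tested. In NUP98-NSD1 against NRASG12D, 2 rose and 3 fell, and with both oncogenes 3 rose and 5 fell against NRASG12D and 1 rose and 1 fell against NUP98-NSD1. Over all tested genes the shares called were 52.1%, 38.3% and 8.61%. F2r, the thrombin receptor that protein C cleaves when bound to Procr, was at 454 ± 46.7 FPKM in NRASG12D (SD, n = 3), 211 ± 25.2 FPKM in NUP98-NSD1 and 20.2 ± 23.7 FPKM in NUP98-NSD1+NRASG12D cells and fell in all 3 comparisons (limma adjusted p = 0.00100, 0.00213 and, between the last 2, 0.0243). The last of these calls held in 2 of the 6 fits that leave out 1 library, and was lost without NUP98-NSD1 replicate 1, 2 or 3 and without NUP98-NSD1+NRASG12D replicate 3. Pros1, the protein S cofactor of protein C, fell from 19.8 ± 5.83 FPKM in NRASG12D to 3.82 ± 0.471 and 1.61 ± 1.23 in these groups (limma adjusted p = 0.000607 and 0.00128 against NRASG12D). Tef, a PAR bZIP relative of Hlf, fell against NRASG12D with NUP98-NSD1 (-0.72) and with both oncogenes (-2.08; limma adjusted p = 0.00714 and 0.00454). Nfil3, a bZIP repressor that binds the same sites as Hlf, rose by 0.95 and 1.95 in these comparisons (limma adjusted p = 0.0123 and 0.00463). Mybl2, a cell cycle relative of Myb, rose by 1.74 and 1.70 (limma adjusted p = 0.000328 and 0.00935). Ctbp2, a corepressor that binds Mecom, rose with both oncogenes by 1.00 against NRASG12D and 0.69 against NUP98-NSD1 (limma adjusted p = 0.00466 and 0.0427). The second call held in 1 of the 6 fits that leave out 1 library.

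Of 35 other genes of stem and progenitor cells, 27 were tested, of which 8 rose and 9 fell in NUP98-NSD1 against NRASG12D, 4 rose and 16 fell in NUP98-NSD1+NRASG12D against NRASG12D, and 1 rose and 8 fell in NUP98-NSD1+NRASG12D against NUP98-NSD1. Over all tested genes, 42.2% rose and 9.98% fell in the first, 24.2% and 14.1% in the second and 2.3% and 6.31% in the last of these comparisons. Some of these genes entered the test only through the groups where they are high, such as Tek through NRASG12D and Hoxa9 and Flt3 through libraries with NUP98-NSD1. This list and that of the relatives were also chosen with earlier results of these data known. Their counts are therefore a description and support no direction. Without NUP98-NSD1 replicate 1, 2 or 3, the last comparison called 2 of the 27 and 0 of the 13 relatives. The medians of the 27 were -0.17, -1.19 and -1.23, and those of all tested genes are given above. Kit, the receptor of SCF on stem cells and mast cells, was at 982 to 1119 FPKM in NRASG12D, at 382 to 561 FPKM in NUP98-NSD1, and at 8.27 to 70.7 FPKM in NUP98-NSD1+NRASG12D cells. Gata2, a factor of stem and mast cells, was at 383 to 492, 304 to 480 and 6.47 to 59.5 FPKM in the same order. For both, replicate 3 was the lowest of the libraries with both oncogenes, as for Cd34 and Mecom. Itga2b, an integrin of megakaryocytes and early progenitors, fell against NRASG12D with NUP98-NSD1 (-1.16) and with both oncogenes (-5.07; limma adjusted p = 0.00116 and 0.00211). Pdzk1ip1, a marker gene of long-term stem cells, and Tek, a receptor on stem cells, fell in NUP98-NSD1 against NRASG12D (-2.75 and -1.70, limma adjusted p = 0.00294 and 0.00523).

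Genes of this list that rose included the homeobox factor Hoxa9, which was at 0 to 0.101 FPKM with NRASG12D alone, at 37.4 to 53.5 FPKM with NUP98-NSD1 alone and at 39.0 to 75.8 FPKM with both. Its changes against NRASG12D were 5.53 ± 0.15 and 5.74 ± 0.25 (limma adjusted p = 7.03e-06 and 3.57e-05). Lmo2, a bridging protein of the stem cell factor complex, rose by 1.66 and 2.28 (limma adjusted p = 0.00381 and 0.000326). Igf2bp2, an mRNA-binding protein of fetal stem cells, rose by 0.93 and 2.68 and was also higher with both oncogenes than with NUP98-NSD1 (1.75 ± 0.34, limma adjusted p = 0.0276). Cd27 and Flt3, receptors of multipotent progenitors, rose in NUP98-NSD1 against NRASG12D by 3.55 and 1.80 (limma adjusted p = 0.000325 and 0.00203). With both oncogenes Cd27 was at 21.2, 2.52 and 0.0925 FPKM and Flt3 at 10.2, 0.525 and 0.0238 FPKM, with replicate 3 the lowest again.

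**Figure D3:**
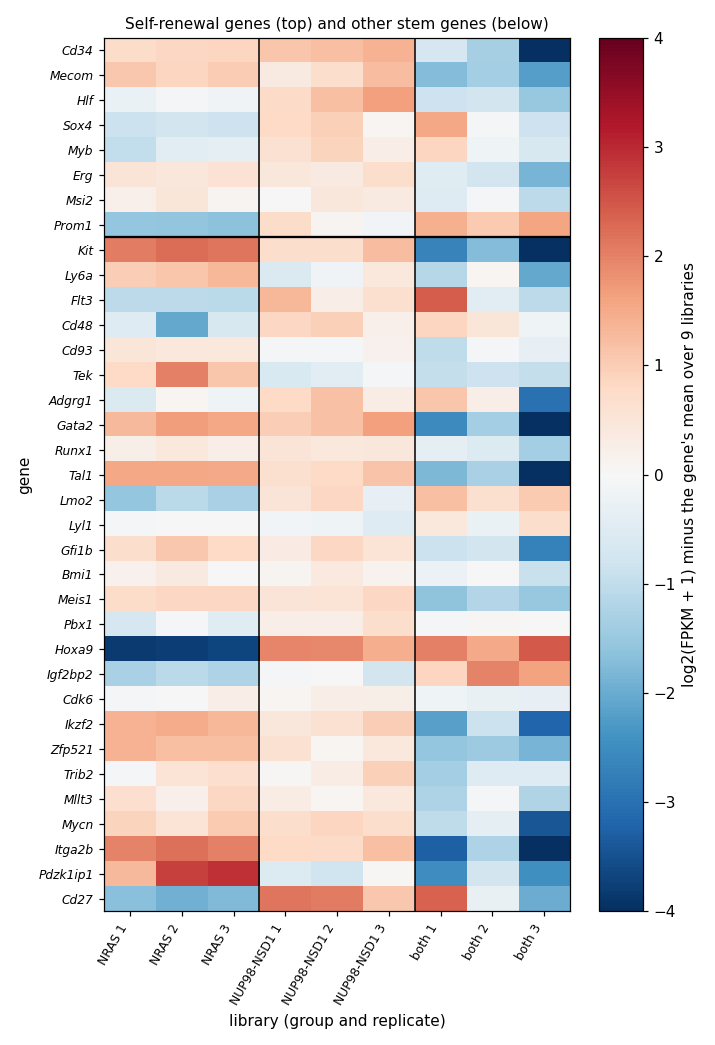
Heat map of log2(FPKM + 1) minus the mean of the gene over the 9 libraries, for the 8 tested self-renewal genes (above the line) and the 27 other tested stem and progenitor genes (below); columns are libraries by group and replicate, and colours stop at -4 and 4. Kit, Gata2 and Itga2b are darkest blue in replicate 3 of NUP98-NSD1+NRASG12D (both), whereas Hoxa9 is blue in the 3 NRASG12D libraries, where it is at 0.101 FPKM or less, and red in the other 6.

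The summed levels of cell type markers differed between the groups in the same comparisons. The summed FPKM of 7 mast cell markers, led by the proteases Cma1 and Tpsb2, ranged over 28652 to 31046 (NRASG12D), 12981 to 16437 (NUP98-NSD1) and 445 to 2383 (NUP98-NSD1+NRASG12D). Not all genes of the mast cell list followed this order. Hdc averaged 4.65, 107 and 71.6 FPKM and Mcpt4 75.1, 440 and 15.6 FPKM in the same order of groups. The sum of 8 neutrophil markers ranged over 0.194 to 12.9, 1352 to 5436 and 8422 to 18741 in this order of groups, and that of 6 monocyte and macrophage markers was 44.3 to 125, 1670 to 2276 and 4977 to 13876. Basophil markers (2 genes) summed to 17.4 to 53.4, 693 to 1441 and 22.6 to 437, eosinophil markers (2 genes) to 0 to 0.0785, 5.33 to 26.7 and 2.87 to 209, erythroid markers (5 genes) to 3.16 to 5.96, 23.3 to 49.4 and 3.31 to 30.7, and megakaryocyte markers (4 genes) to 12.5 to 18.7, 34.1 to 42.9 and 70.3 to 1197. In the megakaryocyte list, Vwf made up most of the NRASG12D sum and its mean went from 12.9 to 7.13 and 3.32 FPKM over the groups, whereas that of Pf4 went from 1.56 to 28.3 and 444 FPKM. With both oncogenes Pf4 was at 62.8, 1157 and 111 FPKM in replicates 1, 2 and 3, so its mean there rests largely on replicate 2. The sums of B cell (4 genes), T cell (3 genes) and stromal markers (4 genes) were at most 0.806 in any library. The 4 endothelial genes summed to 37.4 to 106, of which Pecam1 made up nearly all, and the defining markers Cdh5 and Emcn were at 0.0870 FPKM or less in every library. Kdr, the fourth gene, averaged 0.0379, 0.785 and 1.76 FPKM over the groups.

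Within the group with both oncogenes, replicate 3 had the lowest mast cell sum (445) and the highest neutrophil (18741) and monocyte (13876) sums, and it was the library with the lowest Cd34, Mecom, Hlf and Erg. The primary granule gene Mpo was at 5140, 1463 and 131 FPKM and S100a8, a gene of late neutrophils, at 1431, 2049 and 8629 FPKM in its 3 replicates. Other neutrophil markers also differed in order: Elane and Prtn3 were highest in replicate 1, Ltf and Camp in replicate 2, and Ngp and S100a9 in replicate 3. Of the monocyte and macrophage markers, Lyz2 and Ly6c2 were highest in replicate 3. Csf1r, Cd68, Adgre1 and Fcgr1 were highest in replicate 2, and Csf1r and Fcgr1 were lowest in replicate 3. Sox4, Myb and Mpo were each highest in replicate 1 and lowest in replicate 3 of this group. The part of these cell type markers in the results for the self-renewal genes was not tested.

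**Figure D4:**
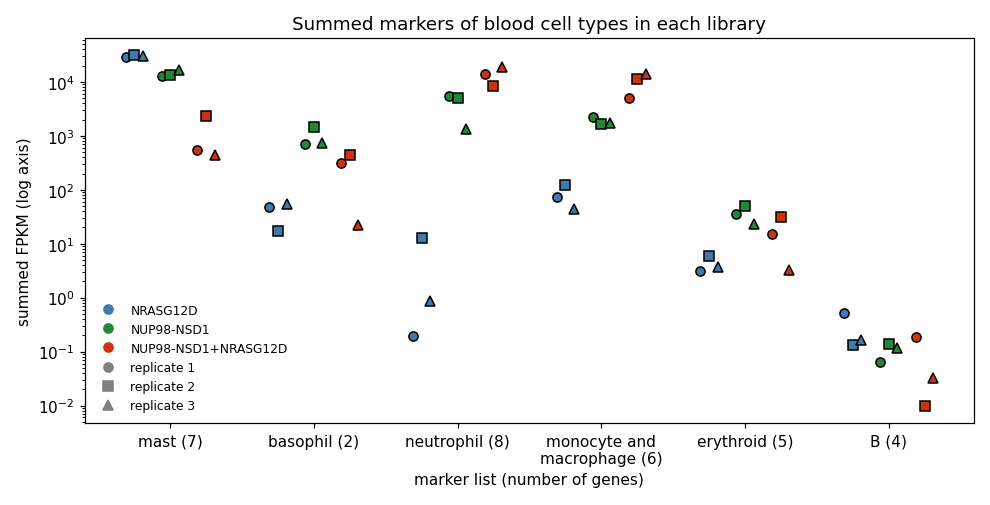
Summed FPKM (vertical log axis) of 6 lists of cell type markers in the 9 libraries, with colours for groups and symbols for replicates. Mast cell sums fall from 28652 to 31046 in NRASG12D to 445 to 2383 in NUP98-NSD1+NRASG12D, whereas neutrophil sums rise from at most 12.9 to between 8422 and 18741.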

How the data were processed

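The authors sequenced 9 RNA libraries of transduced marrow cells as paired-end reads of 50 bp. Per the labels and the study's methods, reads were aligned to GRCm38 with the GENCODE M22 annotation, and the submitters' processing notes list STAR 2.7.2a and Cufflinks 2.2.1. The deposited values are FPKM per gene, 1 Cufflinks table per library with 55330 lines for 55274 identifiers, and values of a repeated identifier were summed. Scaling between libraries, multimapped reads and strand are not given in the sources used here. DESeq2, which the authors name for counts, was not run on FPKM.

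Groups came from the sample labels. The genes and lists were chosen with earlier results of these data known. The genes named are all 10 members, up to 6 called genes per comparison of each other list (the largest rises and falls) and the 3 genes most correlated with each member. The 13493 genes at 1 FPKM or more in 3 or more libraries were fitted as log2(FPKM + 1) with limma 3.58.1 in R 4.3.3 (eBayes with trend), over the 6 libraries of a comparison, and no block was used. Benjamini-Hochberg adjustment was over all tested genes, threshold 0.05. The fit was also run on simulated data that gave both groups of a comparison the same spread. That run does not cover groups of unequal spread, as found here. Depth was estimated from the steps of low FPKM in 3386 single-transcript genes longer than 2500 bp, and 83.2% to 86.9% of low values fell on whole steps (within 0.1 of a step). The 3-fragment floor is for the longest transcript and covers counting error only. Gene positions were taken from the tables and were equal to GENCODE M21 (GRCm38) for the 10 genes. Alternatives were pseudocount, filter, scaling, pooling of the spread, weights, a replicate block and leaving out each library. Python 3.11.15, pandas 2.3.3 and matplotlib 3.10.9 were used.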

Additional observations from a re-analysis of the deposited data

How the results depend on the processing

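Each member's change was recomputed under the alternatives, 354 values in all, of which 295 kept direction and side of the threshold, 27 lost the call, 21 gained one and 11 changed sign. The sign changes concern differences that were not called. Msi2 in NUP98-NSD1 against NRASG12D went from 0.01 to -0.30 with median-ratio scaling and -0.31 with quantile normalization, and ranged from -0.0762 to 0.145 without single libraries. Without single libraries, Erg in this comparison ranged from -0.105 to 0.0646, and Sox4 in NUP98-NSD1+NRASG12D against NUP98-NSD1 from -1.07 to 0.12.

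For NUP98-NSD1 against NRASG12D, 7036 of all tested genes and 5 members were called. With all 9 libraries in 1 fit these were 3065 genes and 3 members, and a filter of 5 FPKM, which removes Hlf and Sox4, left 3 members. The calls were 5689 higher and 1347 lower, but 3059 and 3146 with median-ratio scaling and 2619 and 3447 with quantile normalization. For NUP98-NSD1+NRASG12D against NRASG12D (5173 genes, 3266 higher and 1907 lower, and 5 members), no filter left 2 members, leaving out a library gave 2941 to 6327 genes and 2 to 6 members, and the split was 2665 and 2574 with median-ratio scaling and 2155 and 3064 with quantile normalization. Without any 1 NRASG12D library it was 2941 to 3159 genes. For NUP98-NSD1+NRASG12D against NUP98-NSD1 (1162 genes, 3 members), no filter gave 169 genes and 0 members, all 9 libraries in 1 fit 2251 and 5, array weights 3500 and 7, and leaving out a library 283 to 2509 genes and 2 to 5 members. Without NUP98-NSD1 replicate 1, 2 or 3 it was 417, 302 and 283 genes, without NUP98-NSD1+NRASG12D replicate 1 it was 2509 and without its replicate 3 it was 494. The cause of these moves was not tested, except that no filter tests 41853 genes and leaving out a library uses 5.

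Replicate numbers are shared by the groups. After removal of group means, same-numbered libraries correlated between -0.177 and 0.160, and 0, 2 and 1 of 6 libraries correlated best with their own number in the 3 comparisons, so the numbers were not taken as pairs. With a replicate block, 6864, 4531 and 801 genes and 5, 6 and 3 members were called. At this depth, levels under 0.0794 FPKM of Procr and 0.0312 FPKM of Prom1 were not detectable in the shallowest library.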
